A study of Drosophila melanogaster with 11 samples.

Results

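The genes described here are the gut trypsins and Jonah serine proteases of Drosophila melanogaster. They were chosen by current gene symbol. The rule took every gene whose symbol is Jon followed by a digit, every gene named by a Greek letter and Try, and the genes Phae1, Phae2, Ser6, Ser8, sphe and yip7. The gene table holds 33 such genes, and 28 of them were measured by a probeset assigned to 1 gene, out of 11982 genes measured in all. These 28 are 9 trypsins, 13 Jonah genes and 6 others, and each has 1 probeset. The trypsin genes gammaTry and deltaTry and the Jonah genes Jon99Cii, Jon99Ciii and Jon99Fii had no such probeset and are not analysed here.

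Total RNA of whole third-instar larvae was hybridised to 11 Affymetrix arrays, 6 from males and 5 from females. All larvae were of a y w background. The act-Gal4 control carried the driver act-Gal4 over a wild-type chromosome, the P control carried the transgene labelled P over a wild-type chromosome, and P/act-Gal4 larvae carried both. P is read here as the HP1-21 line of the design text. From what is known of the study, not from the labels, that line carries a Gal4-driven RNAi construct against HP1, a protein of heterochromatin. In act-Gal4 a promoter of actin that is active in most cells makes Gal4. Each group had 2 arrays, except P/act-Gal4 females with 1. The larvae came from 2 independent populations, and no label ties an array to either, so p-values measure the spread between these arrays, which may be technical. Groups and sexes were taken from titles, since strain and description labels of some arrays contradict them.

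Trypsins and the Jonah proteases, which are related to chymotrypsins, are small secreted enzymes that cut food proteins in the lumen of the larval midgut. Trypsins cut after basic residues. Most of these genes lie in tandem clusters of closely related copies, and several are expressed in limited stretches of the midgut. In whole larvae, fewer gut cells and less RNA per gut cell cannot be told apart. Whether probes of one gene also bind RNA of a close copy was not tested, because probe sequences were not used here. The RefSeq synonyms mark kappaTry and sphe as serine protease homologs, proteins with the protease fold that are predicted to lack a working active site. They give yip7 and Jon99Fi, and the unmeasured gammaTry, synonyms of both kinds, protease and homolog.

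All values below are log2 of the deposited intensities, and differences are on the same log2 scale with the standard error of the fit. On the linear scale, not in log2, the median intensity of an array lay between 13.6 and 15.6. Precision is limited by how few arrays there are. Over the 28 genes, the median absolute difference of a replicate pair was 0.044 to 0.0817, against 0.0906 to 0.131 over all genes. The targeted HP1 transcript was at 7.52 and 7.84 in P/act-Gal4 males and at 8.03 to 8.39 in control males. On the P/act-Gal4 female array it was at 8.02, within the range of 7.95 to 8.06 in control females. For eIF4a, the 3′ control probeset exceeded the 5′ one, a sign of how complete the labelled RNA is, by 3.47 to 3.72 on the 3 P/act-Gal4 arrays and 3.89 to 4.98 on the 8 control arrays. The part of this difference in the results below was not tested.

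Of the 3 genes taken as markers of the group, Phae2, a Phaedra serine protease gene, ranged from 4.96 to 7.37 over the 11 arrays. Ser6, a predicted serine protease gene on the X, ranged from 4.57 to 7.10, and the trypsin gene lambdaTry from 3.98 to 6.31. All 3 were above 3.09 on every array, the level that marks background here because 95% of values of 6 Y-linked probesets on female arrays lie under it. Ser8 was the exception among the 28, at 2.72 to 3.20 over all arrays and with a mean at or under that level in 5 of 6 groups. Its calls below are therefore of a transcript not told apart from background.

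**Figure D1:**
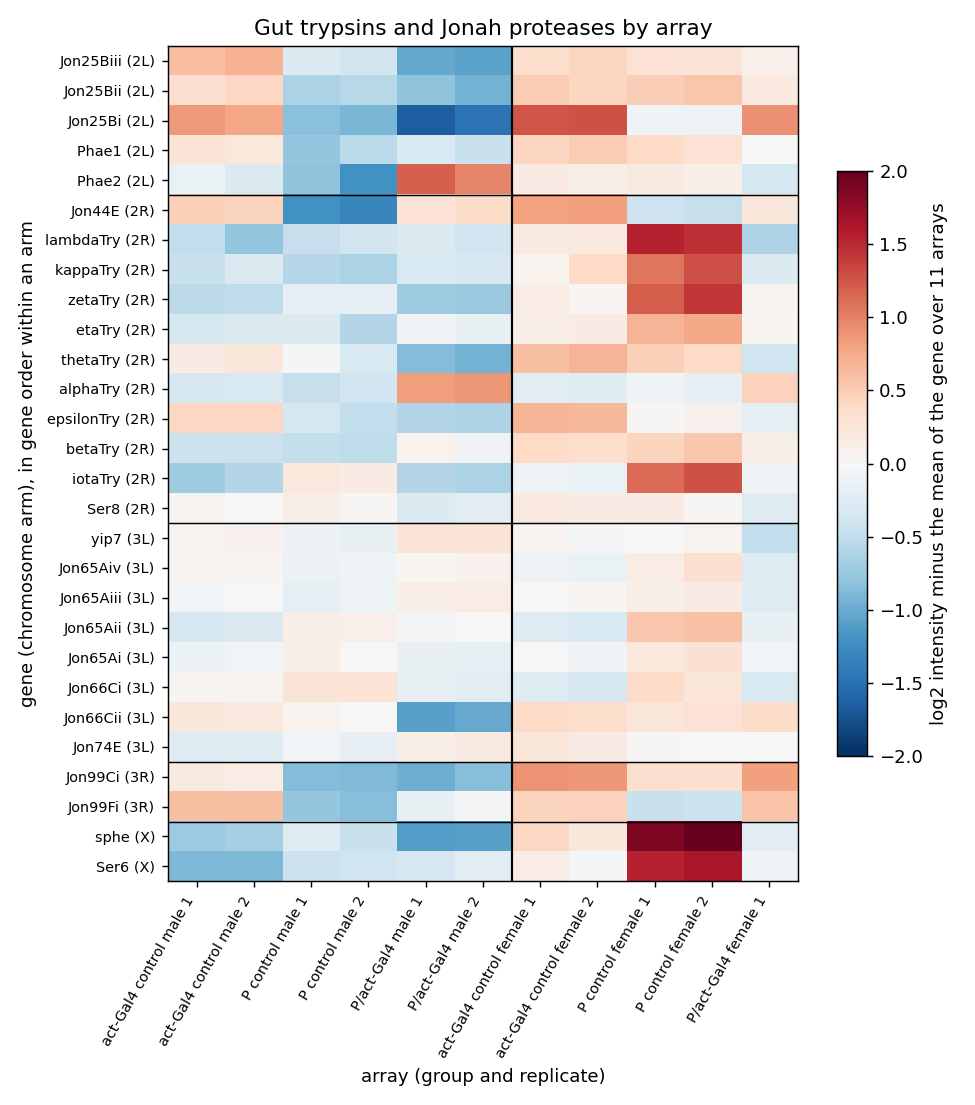
Log2 intensity of each of 28 protease genes (rows, grouped by chromosome arm and in gene order within an arm) minus that gene's mean over 11 arrays, by array (columns; males left and females right of the black line). Rows for lambdaTry, kappaTry, zetaTry, iotaTry, Ser6 and sphe, among others, are highest on both P control female arrays. The row for alphaTry is highest on the 3 P/act-Gal4 arrays.

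Whether protease transcripts differ where both transgenes are present was asked first in males. Among the 28 genes 8 were higher and 12 lower in P/act-Gal4 males than in the mean of both controls (limma, Benjamini-Hochberg adjusted p under 0.05 over all probesets). The background of the same call over all genes was 19.7% higher and 16.8% lower, and 36.5% in either direction. The changes of the 28 ran from −1.53 to 1.70, with a median of −0.07 against −0.01 over all genes, so the genes moved apart from each other in males. The median size of change without its sign was 0.37, against 0.19 over all genes. The 28 genes had array medians of 8.07 to 9.72, and their replicate pairs differed less than those of all genes, which eases a call. No comparison was limited to genes of like brightness. Among the other lists below, the called share in males ran from 28% of other serine proteases and homologs to 76.9% of body wall muscle genes. P/act-Gal4 arrays lay above all 4 controls for 8 genes and below them for 11, against 23% and 22% of all genes. Trypsins gave 2 higher and 4 lower of 9, Jonah genes 3 and 6 of 13, and the others 3 and 2 of 6.

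The counts rest in part on single arrays and on the handling of controls. Without P/act-Gal4 male replicate 2, 4 genes were higher and 8 lower. With both controls pooled into 1 group, so that their own difference counts as error, 3 genes were higher (alphaTry, betaTry and Phae2) and 4 lower (thetaTry, Jon25Biii, Jon66Cii and Ser8). Shares over all genes were not counted for either alternative.

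The largest rise belonged to Phae2. Its log2 level was 6.05 and 5.89 in act-Gal4 control males, 5.37 and 4.96 in P control males and 7.37 and 7.15 in P/act-Gal4 males. Both P/act-Gal4 male arrays thus lay above all other arrays of either sex. The rise was 1.70 ± 0.115 (3.24-fold, adjusted p = 1.27e-06), and it was 2.10 against the P control alone and 1.30 against the act-Gal4 control alone. Phae1, its neighbour on arm 2L, gave no call in males (−0.17 ± 0.0892, adjusted p = 0.205).

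The trypsin gene alphaTry was the second to rise at least 2-fold. It stood at 10.04 and 10.07 in act-Gal4 control males, at 9.91 and 9.99 in P control males, and P/act-Gal4 males had 11.21 and 11.26. The groups did not overlap, and the controls were close to each other. The rise was 1.23 ± 0.0753 (2.35-fold, adjusted p = 5.98e-07). The related trypsin gene betaTry rose by 0.46 ± 0.0781 (adjusted p = 0.00089), with both P/act-Gal4 arrays above all 4 controls.

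The Jonah genes Jon25Bi, Jon25Bii and Jon25Biii, which lie side by side on arm 2L, were lower together in P/act-Gal4 males. For Jon25Bi the levels were 8.996 and 8.92 in act-Gal4 control males, 7.31 and 7.24 in P control males and 6.50 and 6.67 in P/act-Gal4 males. It fell by 1.53 ± 0.0795 (adjusted p = 1.53e-07). The controls themselves differed by 1.69, so the fall was 0.69 from the P control alone and 2.38 from the act-Gal4 control alone, and with pooled controls it did not pass (adjusted p = 0.110). Jon25Biii stood at 10.37 and 10.44, 9.48 and 9.38, and 8.72 and 8.68 in the same order of groups. It fell by 1.22 ± 0.076 (adjusted p = 7.27e-07) and passed with pooled controls as well (adjusted p = 0.0137). For Jon25Bii the change was −0.76 ± 0.0802 (adjusted p = 3.29e-05), with P/act-Gal4 arrays at 7.36 and 7.22 and the lowest control at 7.53.

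Jon66Cii, a Jonah gene on arm 3L, differed from its neighbour Jon66Ci in the size of its change. Its levels were 10.08 and 10.06 in act-Gal4 control males, 9.93 and 9.85 in P control males and 8.77 and 8.85 in P/act-Gal4 males. The fall was 1.17 ± 0.0743 (adjusted p = 7.72e-07), with similar values against either control alone (−1.08 and −1.26). Jon66Ci fell by 0.34 ± 0.0774 (adjusted p = 0.00588), a call that ended against the act-Gal4 control alone (−0.23).

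Among trypsins the deepest fall in males was that of thetaTry. Its arrays were at 8.21 and 8.26 in act-Gal4 controls, 7.996 and 7.74 in P controls and 7.18 and 7.09 in P/act-Gal4 males. The fall was 0.92 ± 0.0895 (1.89-fold, adjusted p = 1.98e-05). The gene next to it among those measured on arm 2R is alphaTry, which rose in the same males. The trypsin gene epsilonTry, next in order after alphaTry, was lower by 0.60 ± 0.077 (adjusted p = 0.000139), though not against the P control alone (−0.18).

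For several genes the call turned on the control chosen. The Jonah gene Jon99Fi was at 11.59 and 11.59 in act-Gal4 control males, at 10.21 and 10.13 in P control males and at 10.84 and 10.96 in P/act-Gal4 males. The last group was higher than the P control by 0.73 and lower than the act-Gal4 control by 0.69, and both passed, while against the mean of the controls it stood at 0.02 ± 0.0757 (adjusted p = 0.904). Jon44E was higher by 0.73 ± 0.075 against the mean (adjusted p = 3e-05) but not against the act-Gal4 control alone (−0.14). For Jon99Ci the change was −0.56 ± 0.0746 (adjusted p = 0.000179), and −0.04 against the P control alone. Jon99Fi was the only one of the 28 with opposite calls against the controls in males, a pattern of 1.21% of all genes. Against the P control alone 9 genes were higher and 10 lower (background 18.3% and 14.1%), and against the act-Gal4 control alone 6 and 11 (18.2% and 17.1%, or 35.3% in either direction). In all, 4 genes were higher and 7 lower than each control taken alone, against a background of 11% and 8.43% of all genes. The 4 were alphaTry, betaTry, Jon74E and Phae2, and the 7 were Jon25Bi, Jon25Bii, Jon25Biii, Jon66Cii, Ser8, sphe and thetaTry.

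Some members moved little in males. The Jonah genes Jon65Ai, Jon65Aii and Jon65Aiv, which lie together on arm 3L, gave no call, and their neighbour Jon65Aiii was higher by 0.23 ± 0.0732 (adjusted p = 0.0357). Over all 11 arrays Jon65Ai stayed between 10.55 and 11.03, Jon65Aiii between 11.82 and 12.25 and Jon65Aiv between 12.34 and 12.91. The range of Jon65Aii was 9.60 to 10.52, highest in P control females. The rises of Jon74E, yip7 and Ser6 were 0.33, 0.30 and 0.37, and the falls of iotaTry and zetaTry were −0.38 and −0.37. No call was made for etaTry (0.27, adjusted p = 0.0519) or kappaTry (0.18).

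The second question was the same comparison in females, which rests on 1 P/act-Gal4 array with HP1 in the control range. Here 3 genes were higher and 13 lower than the mean of the controls, against a background of 11.3% and 8.34%, or 19.6% in either direction. The median change was −0.33, against −0.01 over all genes, and 22 of 28 changes were negative. Trypsins gave 1 higher and 6 lower, Jonah genes 2 and 1, and all 6 of the other genes were lower. The P/act-Gal4 array lay above all 4 controls for 2 genes and below them for 17, against 27.2% and 25.4% of all genes. With pooled controls 1 gene was higher (alphaTry) and 1 lower (thetaTry), and limma's trend and robust options called 21 lower. Shares over all genes were not counted under these settings. Against the P control alone 5 were higher and 14 lower (background 12.9% and 10.3%), and against the act-Gal4 control alone 1 and 8 (8.82% and 6.11%).

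The largest fall in females was that of lambdaTry. Levels were 4.96 and 4.96 in act-Gal4 control females, 6.31 and 6.23 in P control females and 4.16 on the P/act-Gal4 array. The array with both transgenes was thus below both controls, which themselves stood far apart. The fall was 1.46 ± 0.122 (2.75-fold, adjusted p = 1.33e-05), and it was 2.11 from the P control alone and 0.80 from the act-Gal4 control alone. In males lambdaTry stood at 0.19 ± 0.0944 (adjusted p = 0.161).

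The homolog gene sphe (spheroide) is known for a part in signalling to the Toll pathway in flies. Its levels were 5.74 and 5.55 in act-Gal4 control females, 7.19 and 7.37 in P control females and 5.11 on the P/act-Gal4 female array. It fell by 1.36 ± 0.12 (adjusted p = 2.12e-05). In males it was at 4.59 and 4.66, 5.06 and 4.87, and 4.21 and 4.23 in the same order, a fall of 0.57 ± 0.0929 (adjusted p = 0.000654). In both sexes, then, the P/act-Gal4 arrays were the lowest of their sex.

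Other falls in females were those of kappaTry (−0.97 ± 0.136, adjusted p = 0.000536) and Ser6 (−0.93 ± 0.105, adjusted p = 0.000121). The trypsin genes zetaTry and iotaTry fell by 0.65 ± 0.108 and by 0.62 ± 0.103. These 4 calls ended against the act-Gal4 control alone, where the differences were −0.50, −0.17, −0.04 and 0.035 in the same order. The P control alone gave −1.45, −1.70, −1.27 and −1.27. For yip7, known as a partner of the Yippee protein, the female change was −0.51 ± 0.094 (adjusted p = 0.00309), and it passed against either control alone. In all, 1 gene (alphaTry) was higher and 4 (lambdaTry, sphe, thetaTry and yip7) lower than each control alone, against 5.73% and 3.74% of all genes. Jon44E had opposite calls, 0.67 above the P control and 0.58 below the act-Gal4 control on the log2 scale, a pattern of 0.392% of all genes.

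Calls against each control alone in both sexes were made for 3 genes (limma, adjusted p under 0.05 in all 4 comparisons). Of these alphaTry was higher, a pattern of 2.71% of all genes. On the female arrays it stood at 10.14 and 10.13 in act-Gal4 controls, 10.31 and 10.21 in P controls and 10.84 in P/act-Gal4 (0.64 ± 0.0972, adjusted p = 0.000934). The other two, thetaTry and sphe, were lower, a pattern of 1.39% of all genes. Further genes were lower in all 4 comparisons without passing in each, among them epsilonTry, at −1.02 and −0.18 in males and −0.86 and −0.25 in females against the act-Gal4 and P controls. Female thetaTry was at 8.64 and 8.71, 8.52 and 8.44, and 7.64, a fall of 0.93 ± 0.116 (adjusted p = 0.000228). Against the mean of the controls, 1 gene was higher in both sexes and 6 were lower in both (epsilonTry, iotaTry, Ser8, sphe, thetaTry and zetaTry), against 6.43% and 3.71% of all genes.

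**Figure D2:**
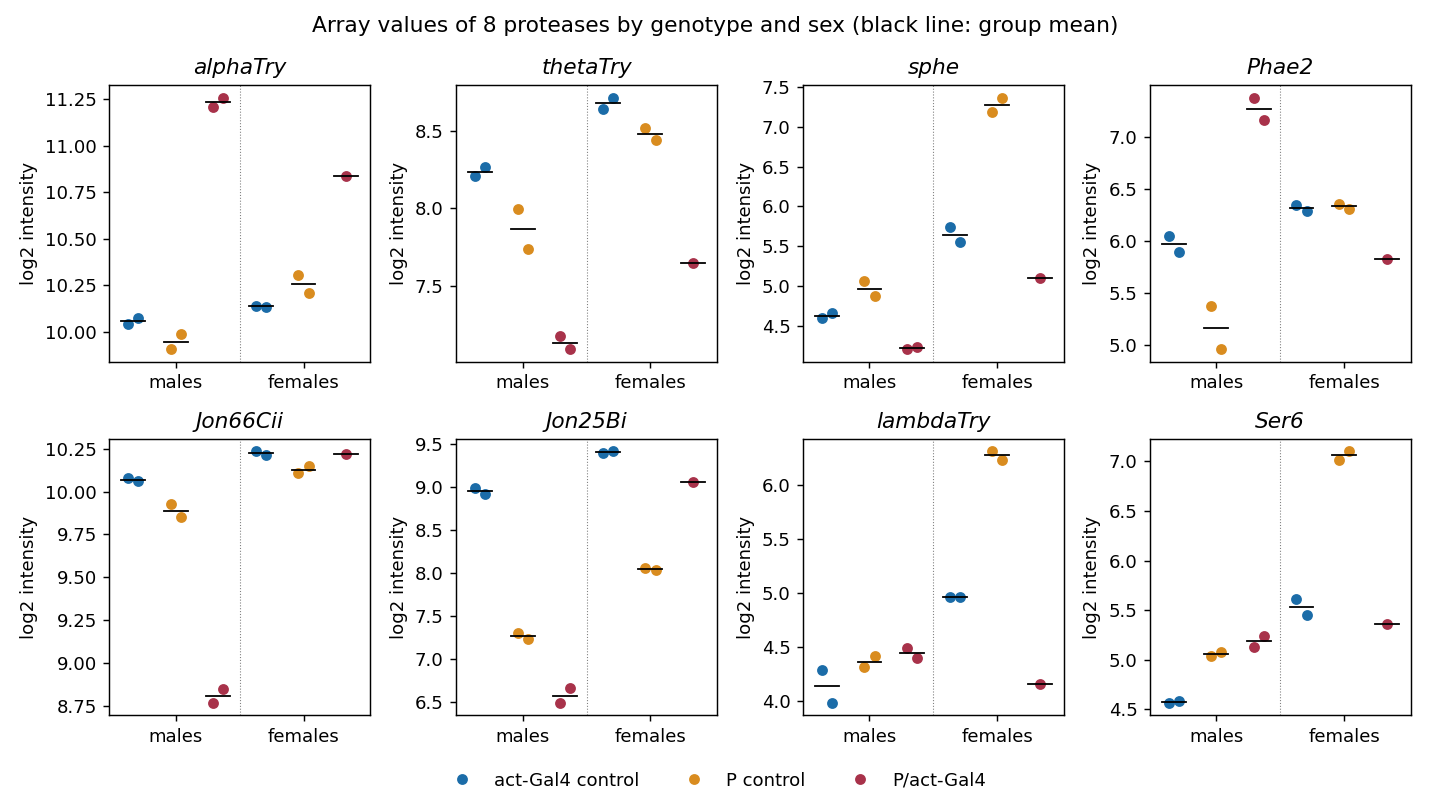
Log2 intensity of 8 protease genes on each of 11 arrays, males left and females right of the dotted line, coloured by genotype; points are arrays and black lines are group means, and each panel has its own axis that does not start at 0. P/act-Gal4 arrays are highest of their sex for alphaTry and lowest for thetaTry and sphe, while Phae2, Jon66Cii and Jon25Bi depart from the controls in males, and lambdaTry and Ser6 are highest on P control female arrays.

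Whether the change differed between the sexes was tested directly. The male change exceeded the female change for 12 of the 28 genes and was below it for 6, against 7.48% and 7.74% of all genes, or 15.2% in either direction. Phae2 led the first set, by 2.19 ± 0.188 (adjusted p = 3e-05), since it rose in males and was lower by 0.50 on the female array (adjusted p = 0.0426). That female call ended against either control alone (adjusted p = 0.0514 and 0.0769). Differences for lambdaTry, Ser6 and kappaTry were 1.65 ± 0.154, 1.30 ± 0.133 and 1.15 ± 0.172. Among trypsins 5 differed in this direction and 0 in the other, by limma and at an unadjusted p under 0.05 alike.

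Among Jonah genes, Jon44E, Jon65Aiii and Jon74E belonged to that first set, so the class did not move as 1. The genes whose male change lay below the female change were all Jonah genes. Jon25Bi led them, by −1.87 ± 0.13 (adjusted p = 6.9e-06). On female arrays it was at 9.40 and 9.42 in act-Gal4 controls, 8.06 and 8.04 in P controls and 9.07 in P/act-Gal4, between the controls, where in males it was lower than both. Jon66Cii followed, by −1.22 ± 0.121 (adjusted p = 8.93e-05), with female arrays at 10.24 and 10.21, 10.11 and 10.15, and 10.22. The remaining 4 were Jon25Biii, Jon99Ci, Jon99Fi and Jon25Bii, at −0.98, −0.78, −0.54 and −0.47. With pooled controls, 3 genes differed in the first direction (betaTry, yip7 and Phae2) and 1 in the second (Jon66Cii), and with the act-Gal4 control alone the first count was 6. Calls in opposite directions in the sexes were made for 5 genes, a pattern of 1.99% of all genes. They were Jon25Bi, Jon65Aiii, Phae2, Ser6 and yip7. The female Jon25Bi call (adjusted p = 0.0472) ended without any 1 of the 10 other arrays, and its sign turned against the act-Gal4 control alone. The male call of Jon65Aiii ended in 9 of 23 alternatives and that of yip7 in 6, and the female call of Phae2 in 12 of 22. For Ser6 the male call ended without P/act-Gal4 male replicate 2. It also ended against the P control alone, and the female call against the act-Gal4 control alone.

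**Figure D3:**
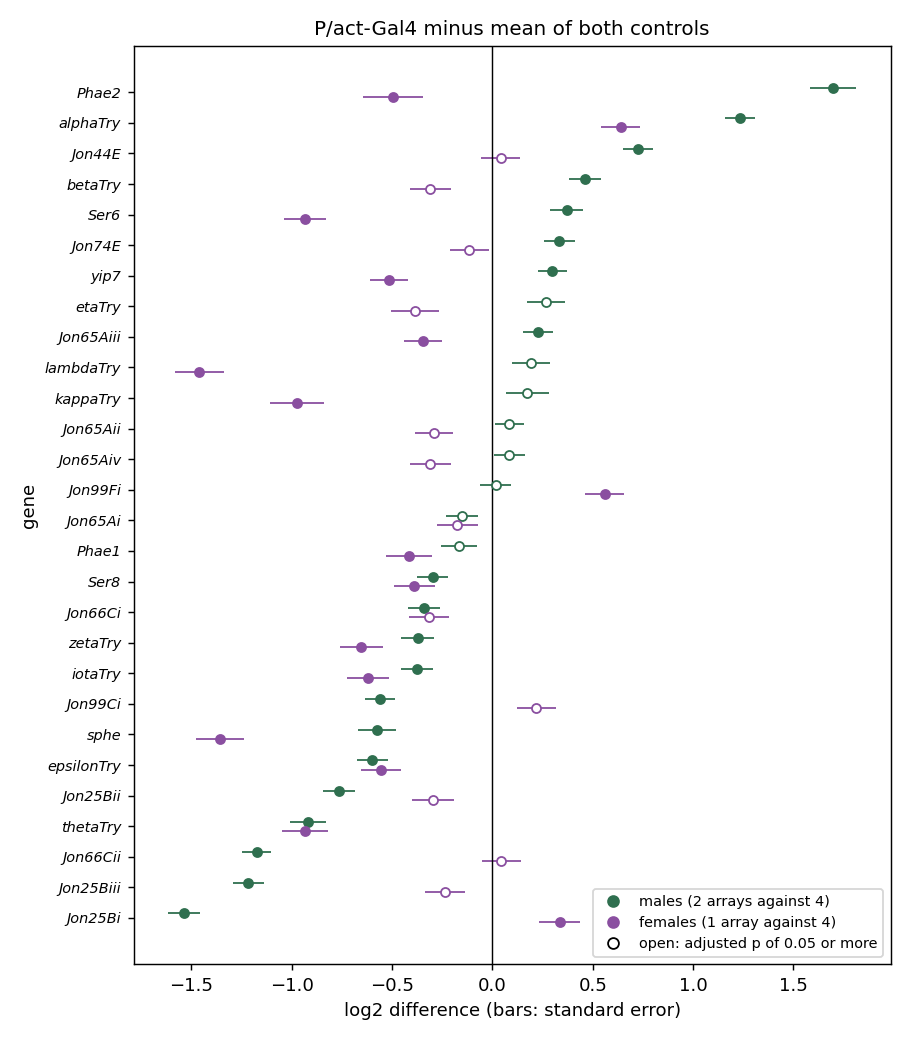
Log2 difference between P/act-Gal4 larvae and the mean of both controls (horizontal axis) for each of 28 genes (vertical axis, ordered by the male value), in males (green) and females (purple); bars are standard errors, and open points had an adjusted p of 0.05 or more. Points of the sexes lie farthest apart for Phae2, at 1.70 and −0.50, and for Jon25Bi, at −1.53 and 0.34.

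The levels of these genes in control larvae were compared between the sexes. Of the 28 genes, 22 were lower in males and 0 higher (limma), against a background of 40.9% and 22.4% of all genes, or 63.4% in either direction. Arrays of the sexes did not overlap for 16 genes, all lower in males, against 22.4% of all genes lower and 18.8% higher. At an unadjusted p under 0.05, 1 was higher, and limma's trend and robust options called 1. The median male minus female difference was −0.56, against −0.14 over all genes. All 9 trypsins were lower in males, with a median of −0.81. Of the Jonah genes 9 of 13 were lower, with a median of −0.20. The largest differences were those of sphe (−1.67 ± 0.0758, 3.17-fold) and Ser6 (−1.48 ± 0.0666), the genes of the set that lie on the X, followed by lambdaTry, kappaTry and zetaTry, at −1.37, −1.19 and −1.06. Setting every array to the same median moved the median of all genes by −0.16 in this comparison, and 27 of the 28 were then lower in males. Lower levels in males were not particular to these proteases. Of the lists described below, 19 of 41 other digestive enzymes were lower and 4 higher. The counts were 17 and 0 of 22 enteroendocrine and nutrient genes, 10 and 0 of 15 hemocyte genes and 10 and 0 of 14 Malpighian tubule genes. Salivary glue genes went the other way, with 3 of 13 lower and 9 higher.

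The sex difference was not of the same size in both crosses, a comparison added after the values were seen. In the P control 23 genes were lower in males and 0 higher, also at an unadjusted p, against 30.6% and 20.6% of all genes (51.2% in either direction). In the act-Gal4 control 14 were lower and 2 higher, against 25.8% and 20.1% (45.9%). For sphe, males were lower by 2.31 in the P control and by 1.02 in the act-Gal4 control, and for lambdaTry by 1.91 and by 0.83. The test of the difference itself passed for 15 genes, all with a sex difference lower in the P control, against 6.69% of all genes in that direction and 10.3% in either. None passed in the other direction (limma; 1 at an unadjusted p under 0.05, 1 with the trend and robust options), against 3.65%. The count of 15 was 9 without act-Gal4 control male replicate 1, without act-Gal4 control male replicate 2 or without act-Gal4 control female replicate 2, and 8 without P control male replicate 2. Among P/act-Gal4 larvae, with 1 female array, 11 genes were lower and 4 higher in males (background 16.3% and 16.1%, or 32.5%), and the largest were Jon25Bi (−2.48 ± 0.112) and Phae2 (1.44 ± 0.163).

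**Figure D4:**
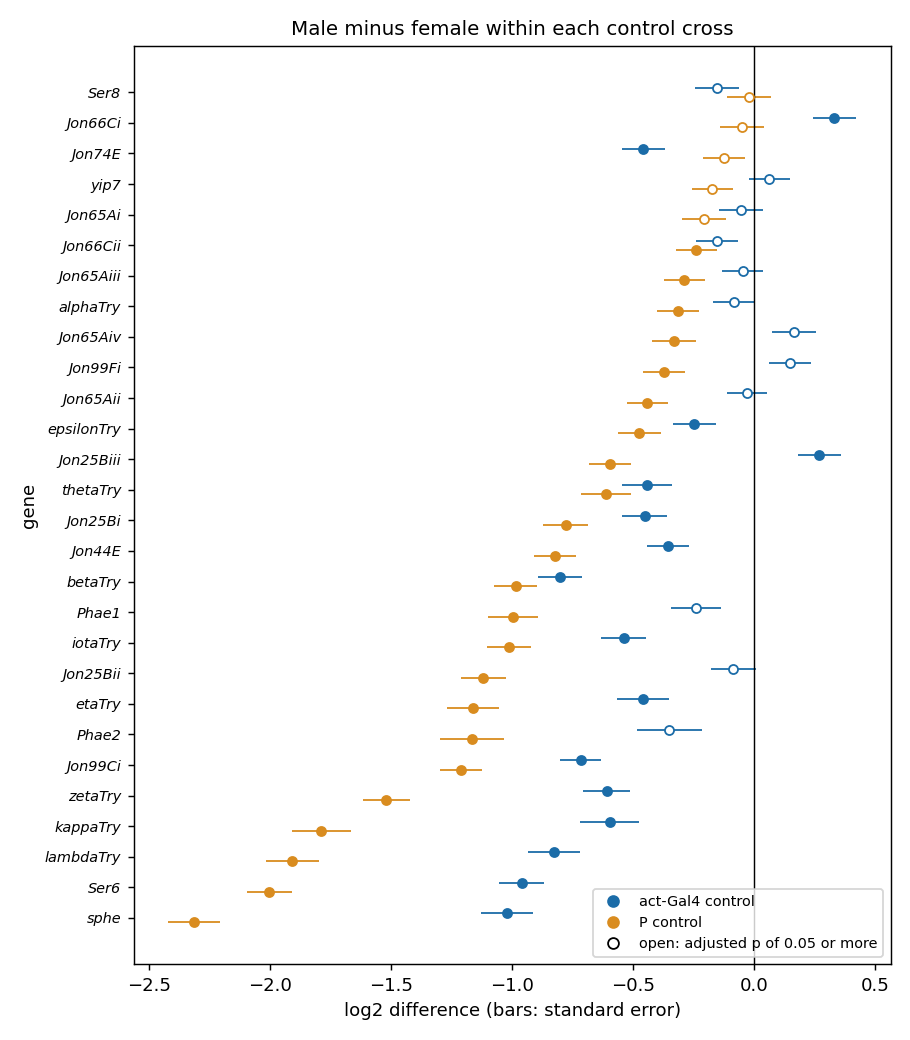
Male minus female log2 difference (horizontal axis) for each of 28 genes (vertical axis, ordered by the P control value) within the act-Gal4 control (blue) and the P control (orange), 2 arrays per sex in each; bars are standard errors, and open points had an adjusted p of 0.05 or more. All P control points lie below 0, with sphe at −2.31, and most act-Gal4 control points lie to the right of them.

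The controls differed from each other, which bounds every statement on P/act-Gal4 larvae. In males 10 genes were higher and 5 lower in the act-Gal4 control than in the P control, against 13.3% and 9.85% of all genes, or 23.1% in either direction. The count of 5 was 3 without any single male array. Jonah genes made up 6 of the 10, led by Jon44E, at 9.43 and 9.40 against 7.74 and 7.64 (1.72 ± 0.0866, 3.30-fold), Jon25Bi (1.69) and Jon99Fi (1.42). These 3 were higher in act-Gal4 control females as well, by 1.25, 1.36 and 0.90.

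In females 5 genes were higher and 10 lower in the act-Gal4 control, against 9.95% and 10% of all genes, or 20% in either direction. Trypsins made up 5 of the 10. The deepest were sphe (−1.63 ± 0.107), Ser6 (−1.53 ± 0.0942), lambdaTry (−1.31 ± 0.109), iotaTry (−1.31 ± 0.0925) and zetaTry (−1.23 ± 0.0966). For Ser6 the P control female arrays were at 7.02 and 7.10, above the other 9 arrays, which lay between 4.57 and 5.62. For zetaTry they were at 9.24 and 9.46, above a range of 7.28 to 8.17. The genes lambdaTry, kappaTry, iotaTry and sphe shared this order, with P control females highest. So did the trypsin genes etaTry and betaTry and the Jonah genes Jon65Ai, Jon65Aii and Jon65Aiv.

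Correlations between genes over the 11 arrays, which share genotype and sex groups, were described by gene order. Neighbours here are measured genes of the set that follow each other on an arm, and other genes can lie between them. The median Pearson correlation over 23 such pairs was 0.641, against 0.297 over all 378 pairs. The stretch lambdaTry, kappaTry, zetaTry and etaTry on arm 2R had neighbour correlations of 0.946, 0.897 and 0.863. Farther along the same cluster, thetaTry and alphaTry ran at −0.769 and alphaTry and epsilonTry at −0.572. High values were not limited to neighbours, since sphe on the X and zetaTry on 2R had the highest of all, at 0.991. These correlations describe the arrays and were not tested.

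Other genes of digestion were described by lists for comparison. The counts in lists are to be read against the shares over all genes, 19.7% higher and 16.8% lower in males and 11.3% and 8.34% in females. Of 41 other midgut digestive enzymes, mainly carbohydrases, lipases and lysozymes, 16 rose and 5 fell in P/act-Gal4 males, with a median of 0.13. In females 14 rose and 5 fell, with a median of 0.10, where the proteases had −0.33. CtsL3, a cathepsin gene, rose by 2.15 ± 0.116 in males and by 2.72 ± 0.15 in females, and the starch-related gene Amyrel by 1.55 ± 0.113 in females. Of 211 other serine proteases and homologs, collected by synonym after the files were seen, 38 rose and 21 fell in males and 29 and 19 in females, with medians of −0.02 and −0.06. The called share of these 211 was 28% in males and 22.7% in females, against 36.5% and 19.6% of all genes. In controls 125 of these 211 were lower and 11 higher in males, against 40.9% and 22.4% of all genes in that comparison. The median was −0.26, against −0.14 over all genes. Of 27 serpins, which inhibit serine proteases, 6 rose and 4 fell in males and 3 and 2 in females, with Spn100A at 1.26 ± 0.132 and 2.89 ± 0.17.

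Among 19 genes of midgut identity and regulation, 8 rose and 2 fell in males and 2 and 3 in females. Between the sexes in controls, 11 of the 19 were lower and 1 higher in males, against 40.9% and 22.4% of all genes. The largest of these differences were those of Vha100-4 (−1.32), the GATA factor gene GATAe (−0.75 ± 0.0898) and Pdp1 (−0.72). The largest change in P/act-Gal4 males was that of Vha100-4, a proton pump subunit gene, which rose by 0.85 ± 0.0894 and in females fell by 0.72 ± 0.115. The GATA factor gene srp rose by 0.74 ± 0.13 in males and by 0.77 ± 0.168 in females. Of 15 genes of the peritrophic matrix, the lining that holds food apart from the gut wall, 3 rose and 4 fell in males and 1 and 5 in females, with Peritrophin-15b at −1.18 and −0.88. Muc11A rose by 1.23 ± 0.0781 in males, the largest change of that list, and Mur89F by 0.72 ± 0.155 in females. The list also includes obst-A and other Muc genes, and whether each of its genes serves that lining was not tested. Of 22 enteroendocrine and nutrient signal genes 10 rose and 0 fell in males (0 at an unadjusted p under 0.05) and 6 and 3 changed so in females, with the peptide gene CCHa2 at 1.28 and 0.80.

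Markers of stage and of other tissues moved with the same groups, and their part in the results was not tested. Of 28 ecdysone and stage genes, 15 rose and 0 fell in females (limma; 1 fell at an unadjusted p under 0.05), and 9 rose and 4 fell in males. Their summed intensity, on the log2 scale, was 14.42 on the P/act-Gal4 female array, 14.26 to 14.30 in act-Gal4 control females and 13.39 to 13.40 in P control females. In males it was 13.87 in P/act-Gal4, 13.88 in the act-Gal4 control and 13.50 to 13.57 in the P control. By this sum P control females, highest for lambdaTry, Ser6 and sphe, were the lowest group. P control males were the next lowest, with lambdaTry at 4.31 and 4.41, Ser6 at 5.04 and 5.08 and sphe at 5.06 and 4.87. A relation of these protease genes to stage was not tested. Of 13 salivary glue genes 9 fell in P/act-Gal4 males and 0 rose, and in females 5 rose and 5 fell. Of 10 cuticle genes, a list that holds Edg91 and Acp65Aa besides Lcp genes, 6 fell in males. The median change of the list was −0.45 in males and −0.46 in females. Their sum was 8.52 to 8.62 in P/act-Gal4 males, 9.97 to 10.04 in P control males and 11.69 to 11.73 in act-Gal4 control males, and in females 10.32, 10.89 and 11.71 to 11.77 in that order.

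The same shares over all genes, 19.7% and 16.8% in males and 11.3% and 8.34% in females, stand behind the counts of tissue markers. Of 13 body wall muscle genes 2 rose and 8 fell in males and 0 and 10 in females. Of 15 hemocyte genes 9 rose and 0 fell in males and 3 and 4 in females, and of 10 fat body genes 3 and 1 in males and 2 and 1 in females. Of 14 Malpighian tubule genes 7 rose and 1 fell in males and 2 and 2 in females. At an unadjusted p under 0.05 the counts of 0 for rises of glue and of cuticle genes, rises of muscle genes in females and falls of hemocyte genes in males were 0 as well.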

How the data were processed

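Intensities, 1 per probeset and array, were deposited on the linear scale after normalization by the authors with RMA, per the submitters' processing notes. RMA options are not given in the sources used here. Log2 was taken of all 18952 values per array, and 183 Affymetrix control probesets were left out. Probesets with 1 gene in the platform table (13647, against 402 with several and 4720 with none) were named by current RefSeq symbol. Each gene was represented by its probeset of highest mean over 11 arrays, and no filter on low values was used. Group means of 6 genotype and sex groups were fitted to all 18769 probesets with limma 3.58.1 in R 4.3.3 (5 residual and 6.29 prior degrees of freedom), and p-values were adjusted by Benjamini-Hochberg over all probesets of a comparison. For P/act-Gal4 females, with 1 array, the spread comes from the remaining groups. All 28 measured genes of the rule are reported, and from other lists at most 3 passing genes per comparison by size of change. Members and lists were chosen with earlier results of these data known. A list formed by a protein motif was not made, since no protein table was used here, and a list by SP or SPH synonym took its place. Alternatives were other variance moderation, array weights, scaling, probeset choice, brightness, thresholds, left-out arrays, single or pooled controls and arrays of 1 sex. The fit was tested on simulated data. Figures were drawn with matplotlib 3.10.9.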

Additional observations from a re-analysis of the deposited data

Results flagged for a closer look

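Genes whose change with both transgenes differed between males and females, by limma's test of the difference, are given as male minus female change. They were Phae2 (2.19), lambdaTry (1.65), Ser6 (1.30), kappaTry (1.15), yip7 (0.81), sphe (0.78), betaTry (0.77), Jon44E (0.68), etaTry (0.65), alphaTry (0.59), Jon65Aiii (0.57) and Jon74E (0.45) in one direction. In the other direction they were Jon25Bi (−1.87), Jon66Cii (−1.22), Jon25Biii (−0.98), Jon99Ci (−0.78), Jon99Fi (−0.54) and Jon25Bii (−0.47). All rest on 1 P/act-Gal4 female array.

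Genes whose male minus female difference was less negative, or more positive, in the act-Gal4 control than in the P control, by the same kind of test, are given as the difference between the crosses. They were sphe (1.29), kappaTry (1.19), lambdaTry (1.08), Ser6 (1.04), Jon25Bii (1.03), zetaTry (0.91), Jon25Biii (0.87), Phae2 (0.82), Phae1 (0.76), etaTry (0.70), Jon99Fi (0.52), Jon65Aiv (0.49), Jon99Ci (0.49), iotaTry (0.47) and Jon44E (0.47). No group held 4 arrays or more, so no array was tested for standing apart within its group.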

How the results depend on the processing

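With pooled controls P/act-Gal4 males had 3 genes called higher and 4 lower, females 1 and 1, and the difference between the sexes 3 and 1. Counts with a required change of at least 1 were 2 and 3 in males, 0 and 2 in females, and 4 and 2 for the difference between the sexes. They were 5 lower in control males than females, 4 and 0 for act-Gal4 minus P control in males, 2 and 5 in females, and 5 for the difference between the crosses. Over all 11982 genes the first 3 comparisons gave 163 and 128, 168 and 102, and 188 and 177. Control males had 1247 higher and 170 lower. Act-Gal4 minus P control gave 173 and 54 in males and 171 and 132 in females, and the difference between the crosses 132 in that direction. Against the P control alone 5 genes were higher in P/act-Gal4 females, and against the act-Gal4 control alone 1 was higher and 8 lower, with 6 for the first direction of the difference between the sexes and 2 higher and 14 lower in males of that control. Limma's trend and robust options gave 21 lower in P/act-Gal4 females, 1 higher in control males and 1 lower for the difference between the crosses, quantile normalization gave 1 for the last, and bright probesets or an adjusted p under 0.1 gave 1 higher in control males. With 1 array left out, counts in P/act-Gal4 males ran from 4 to 9 higher and 8 to 12 lower, in females 2 higher and 10 to 14 lower, and for the difference between the sexes 10 to 13 and 4 to 6. Control males had 0 to 1 higher and 19 to 22 lower, act-Gal4 minus P control 9 to 10 higher and 3 to 5 lower in males, and 5 and 9 to 10 in females, and the difference between the crosses 8 to 15 and 0. Signs turned against the P control alone for the difference between the sexes of Jon25Bii (0.046), and against the act-Gal4 control alone for iotaTry (0.041) and Jon44E (−0.14) in P/act-Gal4 males, Jon25Bi (−0.34) and iotaTry (0.035) in females, and Jon25Biii (0.27) in control males. The causes were not tested beyond the construction of each alternative. Shares over all genes were not counted for left-out arrays, pooled controls, other scaling or other variance options. No paired analysis was possible because the labels give no replicate numbers shared by groups. Low signal limits Ser8.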
